A study of Mus musculus with 8 samples.

Results

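The p53 target genes described here are 32 genes of the p53 pathway, taken by gene symbol from the 18501 genes of the deposited expression table. They comprise Trp53 itself, its regulators Mdm2 and Mdm4, and 29 genes that p53 is known to activate in arrest, cell death, DNA repair and stress responses. All 32 were found and all 32 passed the filter on low counts that left 14359 genes for testing. The list was chosen by knowledge of the pathway, after differences between the groups of these same libraries had been seen, so its members count as selected on those differences and the counts below describe the list without lending it support.

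The libraries were made from rib cartilage cells of 10 day old CD1 mice of 2 lines in which a change in the Mir140 gene leaves the 5p arm of miR-140 overexpressed. In the CG line the mutants carry a changed seed region of the 3p arm, and in the CT line, labelled C>T, the mutants carry a C>T base change. Each line has its own wild types, which gives 4 groups of 2 libraries each: CG wild type, CG mutant, CT wild type and CT mutant. Cartilage was digested overnight with collagenase II in medium with serum, and the freed cells were filtered and plated before RNA extraction. The labels give no zygosity, sex or time in culture. They also leave out whether each library is a separate animal. Counts of Y-linked Ddx3y were 2 against 2511 between CG wild types, 3669 against 10 between CT wild types, and 3512 against 30 between CT mutants. By this gene, the libraries within each of these groups differed in sex. Those of the CG mutants, at 2231 and 2360, did not. The p-values below reflect only how libraries of a group differ, and how much of that spread is technical was not tested.

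p53 is a transcription factor that is kept scarce by Mdm2, a ubiquitin ligase, and restrained by its relative Mdm4. When DNA damage or another stress frees it, p53 binds paired copies of a short response element and raises genes that stop the cell cycle, such as Cdkn1a (p21), that favour apoptosis, such as Bax and Bbc3 (Puma), and that repair DNA. Mdm2 is itself a target, which closes a feedback loop. Much of the control of p53 acts on the protein, so the level of Trp53 RNA and the level of its targets can move apart.

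The arm altered in the CG mutants is shown first, in its unchanged RefSeq form from build GRCm38.p6, with the seed at bases 2 to 8 in capitals. The altered bases of the mutant are not given in the labels.
mmu-miR-140-3p: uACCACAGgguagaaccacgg

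The start regions of the targets were searched for the p53 response element, the sequence through which p53 acts on its targets. The search used RefSeq windows of build GRCm38.p6 that reach from 250 bases before to 50 bases after each annotated start, and 24 of the 32 members had a window. Ddb2, Perp, Pmaip1, Rrm2b, Tnfrsf10b, Trp53inp1, Xpc and Zmat3 had none. A full element was taken as 2 adjacent 10-base units of the p53 consensus, each with its core C and G, with at most 1 mismatch over the 20 bases. The consensus reads the same on either strand, so 1 scan covers both. Full elements were found at Cdkn1a and Ccng1, which is 8.33% of the members with a window, and at 22 of 27025 genes in all, or 0.0814%. Cdkn1a had the highest level per length of the list and Ccng1 the smallest p in the CG line, and the 250 bases before their starts are printed in the direction of the gene with the element in capitals. The Cdkn1a stretch is chr17:29090729-29090978 on the plus strand, before the upstream of its starts, and its element at chr17:29090928-29090947 begins 51 bases before that start. The Ccng1 stretch is chr11:40755287-40755536 on the minus strand, and its element at chr11:40755462-40755481 begins 195 bases before the start.
Cdkn1a: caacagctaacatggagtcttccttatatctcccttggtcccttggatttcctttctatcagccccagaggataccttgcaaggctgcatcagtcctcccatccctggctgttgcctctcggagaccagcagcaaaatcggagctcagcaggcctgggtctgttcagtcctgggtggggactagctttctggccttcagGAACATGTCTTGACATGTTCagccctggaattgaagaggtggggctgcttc
Ccng1: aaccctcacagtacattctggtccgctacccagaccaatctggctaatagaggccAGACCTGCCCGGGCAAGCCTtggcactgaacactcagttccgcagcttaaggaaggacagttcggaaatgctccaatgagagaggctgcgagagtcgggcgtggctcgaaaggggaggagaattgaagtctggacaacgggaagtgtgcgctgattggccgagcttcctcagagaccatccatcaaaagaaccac

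A single 10-base unit with no mismatch stood in the window of 10 of the 24 members, or 41.7%, against 2582 of 27025 genes, or 9.55%. The count includes the units inside the full element of Ccng1 and Cdkn1a. Other members with a unit were Aen, Bax, Ei24, Gadd45a, Mdm2, Polk, Sesn1 and Trp53. Those of 5 members whose values are followed below are printed, with every base in capitals as part of the match. A match describes these letters and is no measure of binding.
Mdm2: GAACTTGCCT
Ei24: GGGCATGCCC
Aen: GGGCTTGTCC
Bax: AGGCAAGCTT
Trp53: GGACTTGCCC

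Between 26536868 and 28678641 estimated read counts were assigned to genes in each library, and levels are given as CPM (read counts scaled to the library's total) with TMM, a factor that evens out library composition. Chondrocyte markers such as Col2a1, Acan and Sox9 were detected in every library, with a sum over 9 markers of 30820 to 59800 CPM. The first principal component of all genes tested held 64.5% of the variance and separated the lines, and the second held 12.2% and set CG mutant 1 apart from the other 7 libraries. Y-linked Ddx3y had 2 counts in CG wild type 1, 10 in CT wild type 2 and 30 in CT mutant 2, and 2231 to 3669 in the other 5 libraries. By this gene the sexes were not balanced in the CG line. No Xist counts were found for any library, and whether that gene was listed at all was not checked, so sex was read from Ddx3y alone. Deposited counts were not whole for Zmat3, Mdm2, Tnfrsf10b, Ddb2 and Rrm2b, as happens where reads are shared with other features, and the values of these 5 genes are less certain. In bulk RNA, fewer cells that express a gene and less RNA of it per cell cannot be told apart.

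Per transcript length the targets spanned a wide range. Cdkn1a had the highest level, 357 FPKM (fragments per kilobase of transcript, scaled to the library's reads) as a mean over 8 libraries. Plk2, a polo-like kinase, followed with 151 FPKM, Gadd45a, a growth arrest and DNA damage gene, with 145, Bax, which forms pores in the outer mitochondrial membrane, with 117, and Gdf15, a secreted stress cytokine, with 115. Trp53 stood at 91.5 FPKM, below those 5 genes. The lowest were Sesn1 with 2.88, Ddb2 with 2.41 and Pmaip1 (Noxa) with 0.49 FPKM. Pmaip1 had 0.249 to 2.08 CPM per library, so its changes carry the largest errors of the list. p63 and p73, the relatives of p53, were near 0: their summed level was at most 0.649 CPM, and neither passed the filter on low counts.

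**Figure D1:**
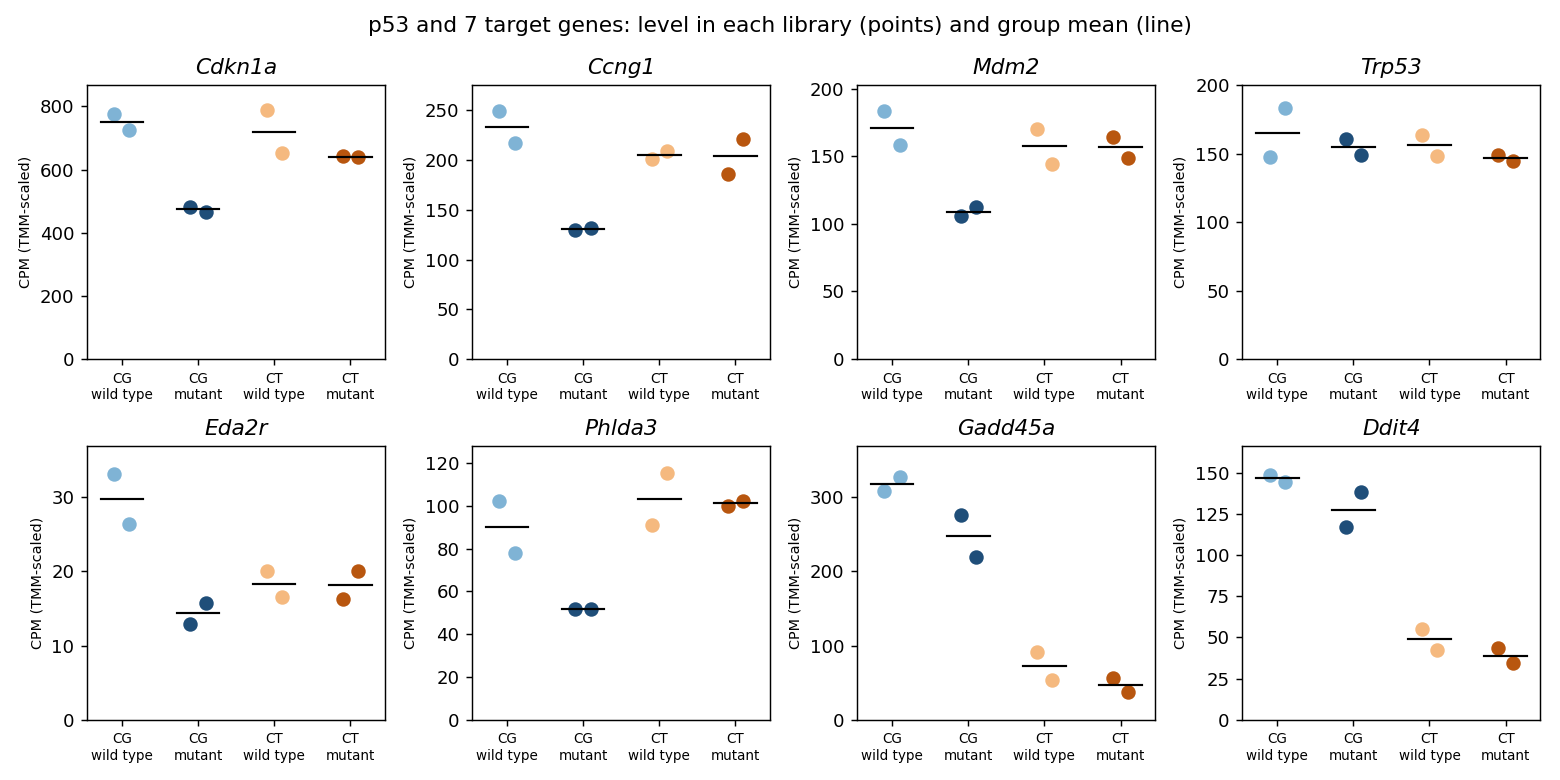
Level of p53 and 7 of its pathway genes in each of the 8 libraries, in TMM-scaled CPM (vertical axes, each from 0), by group (horizontal axes); points are libraries and lines are means of 2. The CG mutants of Cdkn1a (482 and 466 CPM), Ccng1, Mdm2, Eda2r and Phlda3 lie below the other 6 libraries, Trp53 does not separate the groups, and Gadd45a and Ddit4 separate the lines.

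In the CG line, mutants were compared with their own wild types. This comparison takes the changed 3p seed together with the overexpressed other arm and the unbalanced Ddx3y, and cannot separate them. Trp53 RNA overlapped between the groups, with 147 and 183 CPM in the wild types and 161 and 149 CPM in the mutants (log2 difference -0.09 ± 0.12, SE, n = 2 per group). Several core targets were lower in both mutants. Cdkn1a had 776 and 725 CPM in the wild types and 482 and 466 CPM in the mutants, a log2 difference of -0.66 ± 0.11 (edgeR quasi-likelihood test, adjusted p = 0.145). Ccng1, cyclin G1, had 249 and 218 CPM in the wild types and 130.1 and 132 CPM in the mutants, a log2 difference of -0.83 ± 0.11, and its adjusted p of 0.0865 by edgeR was the smallest of the 32. Mdm2 had 184 and 159 CPM in the wild types and 106 and 113 CPM in the mutants, a log2 difference of -0.65 ± 0.12 (edgeR adjusted p = 0.178). The 2 mutant libraries lay below both wild types for each of these 3 targets, and below both groups of the CT line as well.

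Over the list, 26 of 32 members had a log2 difference below 0 in the CG mutants, with a median of -0.38, where 49.4% of all genes tested were below 0 and their median was 0.00. None passed the adjusted threshold of 0.05 in edgeR, where 0.00696% of all genes did, a single gene. At an unadjusted p under 0.05, 16 members were lower and none higher, against 4.87% and 6.5% of all genes. By library order, 23 members had both mutants below both wild types, against 22.5% of genes, and Sesn1 alone had both above, against 23.2%. The groups overlapped for the other 8, Trp53, Mdm4, Plk2, Perp, Polk, Ddb2, Ercc5 and Rrm2b. In 12 members the CG mutants were the 2 lowest of the 8 libraries, against 9.7% of genes: Cdkn1a, Ccng1, Mdm2, Eda2r, Phlda3, Zmat3, Aen, Apaf1, Ei24, Tnfrsf10b, Xpc and Pmaip1.

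DESeq2 on the same counts called 9 members lower in the CG mutants and none higher, where it called 0.751% of the 12385 genes it tested lower. These were Ccng1 (DESeq2 adjusted p = 1.78e-07), Cdkn1a (4.45e-05), Eda2r, Phlda3, Mdm2, Trp53inp1, Gdf15, Tnfrsf10b and Zmat3 (0.0326). In the authors' deposited table, which lists 11 of the members, 5 had a q-value under 0.05 in this comparison, all lower, against 0.868% of the 2649 genes that table gives a q-value. That table holds mostly genes that are higher in the CT line. Between the mutants, 1963 of its genes had a q-value under 0.05 as higher in the CT line and 48 as lower, and all 11 members were higher. Genes low in the CG mutants are thus favoured in it, and its count lends the list no support. The authors' deposited table gives Ccng1 a log2 ratio of -0.84 with q = 7.17e-07, and Cdkn1a one of -0.66 with q = 7.41e-06. It gives q = 0.00185 for Mdm2, 0.00294 for Phlda3 and 0.0228 for Zmat3 in the authors' deposited comparison. The log2 differences themselves were nearly the same by the 3 sources.

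All 11 death receptor and apoptosis genes had a log2 difference below 0 in the CG mutants, where 49.4% of all genes did, with a median of -0.50. An unadjusted p under 0.05 was reached by 9 of the 11 as lower, against 4.87% of all genes. Eda2r, an X-linked receptor of the TNF receptor family that binds ectodysplasin A2, showed the largest difference of the list. It had 33.2 and 26.4 CPM in the wild types and 12.8 and 15.8 CPM in the mutants, a log2 difference of -1.06 ± 0.18 (edgeR adjusted p = 0.145). With a term for Ddx3y in the fit, which stands for the sex of the library, the Eda2r difference was -0.99 ± 0.20. Trp53inp1, a stress-induced p53 cofactor, had 57.3 and 49.9 CPM against 24.7 and 31.0 CPM, a log2 difference of -0.95 ± 0.20. Bbc3, a BH3-only activator of Bax, had 20.8 and 19.6 CPM against 11.4 and 13.8 CPM, a log2 difference of -0.68. Bax had 114.6 and 113.8 CPM against 83.8 and 86.4 CPM (log2 difference -0.42), and Tnfrsf10b, the TRAIL receptor, 84.3 and 73.1 CPM against 52.6 and 59.2 CPM (-0.49). The log2 differences of Fas, a death receptor, Apaf1, the scaffold of the apoptosome, Ei24 and Aen, an exonuclease, were -0.60, -0.50, -0.44 and -0.28. Perp, a desmosomal protein, and Pmaip1 had -0.11 ± 0.28 and -0.73 ± 0.60, less than or near their errors.

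Arrest genes were split. Beside Cdkn1a and Ccng1, Btg2, an antiproliferative protein, had a log2 difference of -0.37 ± 0.24 and Gadd45a one of -0.36 ± 0.26. The polo-like kinases Plk3 and Plk2 had -0.12 ± 0.23 and 0.09 ± 0.23. For Plk2 the CG mutants, with 628 and 389 CPM, lay on either side of the wild types at 455 and 501 CPM. Phlda3, which restrains the kinase Akt, had 102.5 and 77.7 CPM in the wild types and 51.6 and 51.7 CPM in the mutants, a log2 difference of -0.80 ± 0.15 (edgeR adjusted p = 0.18). Zmat3, an RNA-binding zinc finger protein, had a log2 difference of -0.54 ± 0.12.

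DNA repair genes were the role group closest to 0. Their median log2 difference in the CG mutants was 0.02, with 3 of 6 below 0. Zfp365, which helps to keep the genome stable, had -0.40 ± 0.15, and Xpc, a sensor of helix-distorting damage, had -0.21 ± 0.09. Ercc5 and Ddb2 of nucleotide excision repair had -0.11 and 0.15, the translesion polymerase Polk 0.19, and Rrm2b, a ribonucleotide reductase subunit, 0.17. Among the stress genes, Gdf15 had 215 and 254 CPM in the wild types and 147 and 124 CPM in the mutants, a log2 difference of -0.79 ± 0.19. Sesn2 and Ddit4, which restrain mTORC1, had -0.22 ± 0.27 and -0.20 ± 0.16, and Sesn1 had 0.16 ± 0.15. The regulator Mdm4 had 0.02 ± 0.11.

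**Figure D2:**
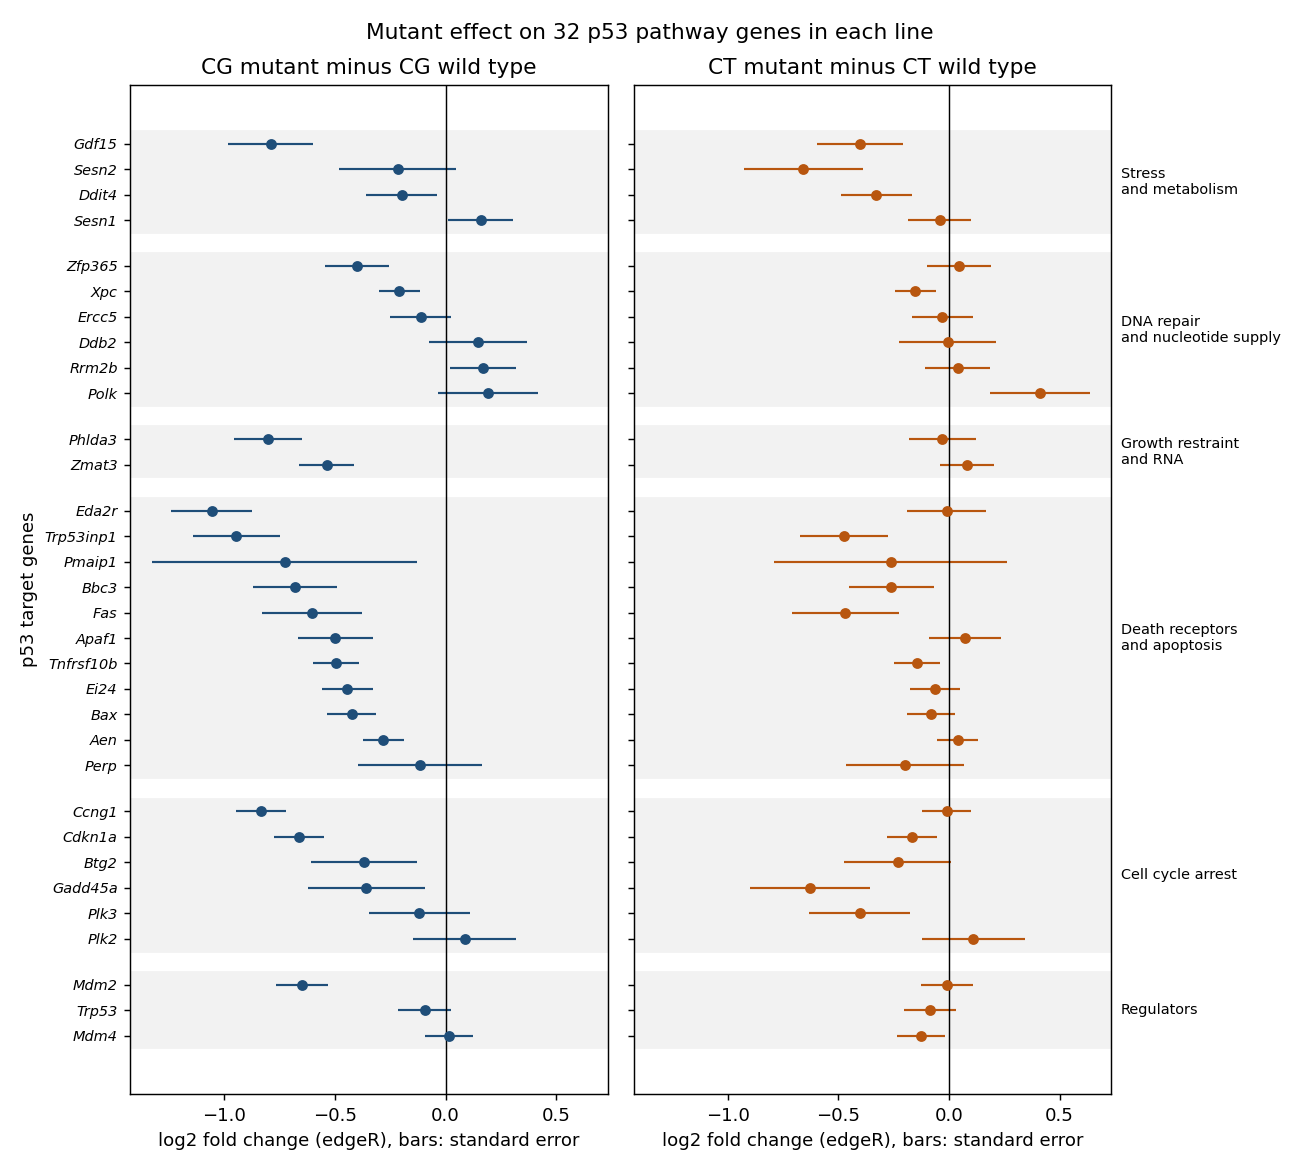
Log2 fold change of mutants over their own wild types for the 32 genes (edgeR; horizontal axes), with the CG line on the left and the CT line on the right; bars are standard errors and shaded blocks are role groups. In the CG line 26 of 32 points lie left of 0 with a median of -0.38, and in the CT line 25 do with a median of -0.08.

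Other cell types and library features moved beside this comparison. All 8 macrophage and leukocyte markers had a log2 difference below 0 in the CG mutants, where 49.4% of all genes did, with none past the adjusted threshold. Their sum was 565 and 481 CPM in the wild types and 332 and 468 CPM in the mutants. Cd14 made up most of it, and the other 7 markers summed to 38.0 and 41.5 CPM in the wild types and 15.1 and 43.7 CPM in the mutants, so that only CG mutant 1 was lower. Chondrocyte markers were above 0 in 7 of 9, with sums of 32820 and 31830 CPM against 53160 and 30820 CPM, again with CG mutant 1 apart. All 4 endothelial markers were below 0, with sums of 30.7 and 22.9 CPM against 10.3 and 31.5 CPM, and 9 of 10 dissociation stress genes were, with sums of 1479 and 1396 CPM against 1289 and 1270 CPM. Fibroblast markers were below 0 in 4 of 5, and their sum was 2453 and 3093 CPM in the mutants against 3186 and 3233 CPM. None of the markers of these lists was at 0 in any library. Their part in the result was not tested. Without CG mutant 1, the library that stands apart, the members' median was -0.37 with 29 of 32 below 0, where 50.2% of all genes were. Without CG wild type 1, the library with almost no Ddx3y, the median was -0.39 with 26 of 32 below 0, where 48.8% of all genes were. Without CG mutant 2, edgeR called 4 members lower, Ccng1, Eda2r, Trp53inp1 and Mdm2, while it called 522 of all genes against 1 with every library.

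In the CT line, mutants and wild types lay close for the core targets. Cdkn1a had 788 and 653 CPM in the wild types and 641 and 641 CPM in the mutants (log2 difference -0.17 ± 0.11). Both mutants were lower, but by less than the wild types differed from each other. Ccng1 overlapped, with 201 and 209 CPM against 186 and 221 CPM (-0.01 ± 0.11), and so did Mdm2, with 170.4 and 145 CPM against 164 and 149 CPM (-0.01 ± 0.12). Trp53 had 164 and 148 CPM in the wild types and 149 and 145 CPM in the mutants (-0.09 ± 0.12). Eda2r, with the largest difference in the CG line, had 20.1 and 16.5 CPM against 16.3 and 20.03 CPM.

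Over the list, 25 of 32 members had a log2 difference below 0 in the CT mutants, where 50.6% of all genes were, and the median was -0.08 against 0.00 for all genes. On the FPKM scale 19 of the 31 members that passed its filter were below 0, where 39% of all genes were. No member passed the adjusted threshold in edgeR, where 0.00696% of genes did, and adjusted p-values ran from 0.958 to 0.998. DESeq2 called none. At an unadjusted p under 0.05, 3 members were lower and none higher, against 2.66% and 2.45% of genes. These were Sesn2 (log2 difference -0.66 ± 0.27), Gadd45a (-0.63 ± 0.27) and Trp53inp1 (-0.47 ± 0.20). The next smallest p-values were those of Gdf15 (-0.40 ± 0.19) and Ddit4 (-0.33 ± 0.16). Both mutants lay below both wild types for 6 members, against 16.3% of genes, namely Cdkn1a, Tnfrsf10b, Perp, Xpc, Trp53inp1 and Fas. They lay above for Aen and Polk, against 17.2% of genes.

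The 5 members with the smallest p in this line hold 3 of the 4 stress genes. The groups did not overlap for Trp53inp1. For Sesn2, Gadd45a and Ddit4 they overlapped, and values differed as much within a group as between groups. Sesn2 had 148 and 81.5 CPM in the wild types and 86.0 and 59.5 CPM in the mutants. Gadd45a had 91.1 and 53.1 CPM against 56.0 and 37.3 CPM, and Ddit4 55.4 and 42.6 CPM against 43.7 and 34.3 CPM. In each of these genes CT wild type 1 was the highest and CT mutant 2 the lowest of the line, and CT wild type 2 lay just below CT mutant 1. The 10 dissociation stress genes had the same order in sum, 3558 and 2555 CPM in the wild types and 2499 and 2142 CPM in the mutants, except that CT wild type 2 lay just above CT mutant 1. Without Hspa1a and Hspa1b, the sums were 1713 and 1317 CPM in the wild types and 1349 and 1197 CPM in the mutants. Neutrophil markers were below 0 in 6 of 6, with a median log2 difference of -1.34 and sums of 201 and 140.1 CPM against 61.8 and 77.8 CPM, and DESeq2 called Ngp, Camp and Ltf lower. Leukocyte markers were below 0 in 7 of 8, with a median of -0.67. Ddx3y was high in both CT libraries numbered 1 and near 0 in both numbered 2, so number and sex cannot be told apart there. The part of these features in the result was not tested. The counts of the line rest on single libraries. The members' median was -0.11 without CT mutant 2 and -0.04 without CT wild type 1. It was -0.10 without CT mutant 1 and -0.15 without CT wild type 2. In that order 24, 19, 23 and 23 of 32 were below 0, against 51.4%, 49.1%, 50.5% and 48.7% of all genes. The number of members at an unadjusted p under 0.05 moved both ways in these runs, where its share over all genes was not counted. That number also fell without either CG wild type, which only lends to the shared spread.

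Repair, growth restraint and most apoptosis genes of the CT line lay near 0. The 6 repair genes had a median log2 difference of 0.02, with Polk at 0.41 ± 0.23 as the highest of the list. Phlda3 and Zmat3 had -0.03 ± 0.15 and 0.08 ± 0.12. In the apoptosis group 9 of 11 were below 0 with a median of -0.14, from Trp53inp1 at -0.47 to Apaf1 at 0.07. Fas had -0.47 ± 0.24, Bbc3 -0.26 ± 0.19 and Bax -0.08 ± 0.11.

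**Figure D3:**
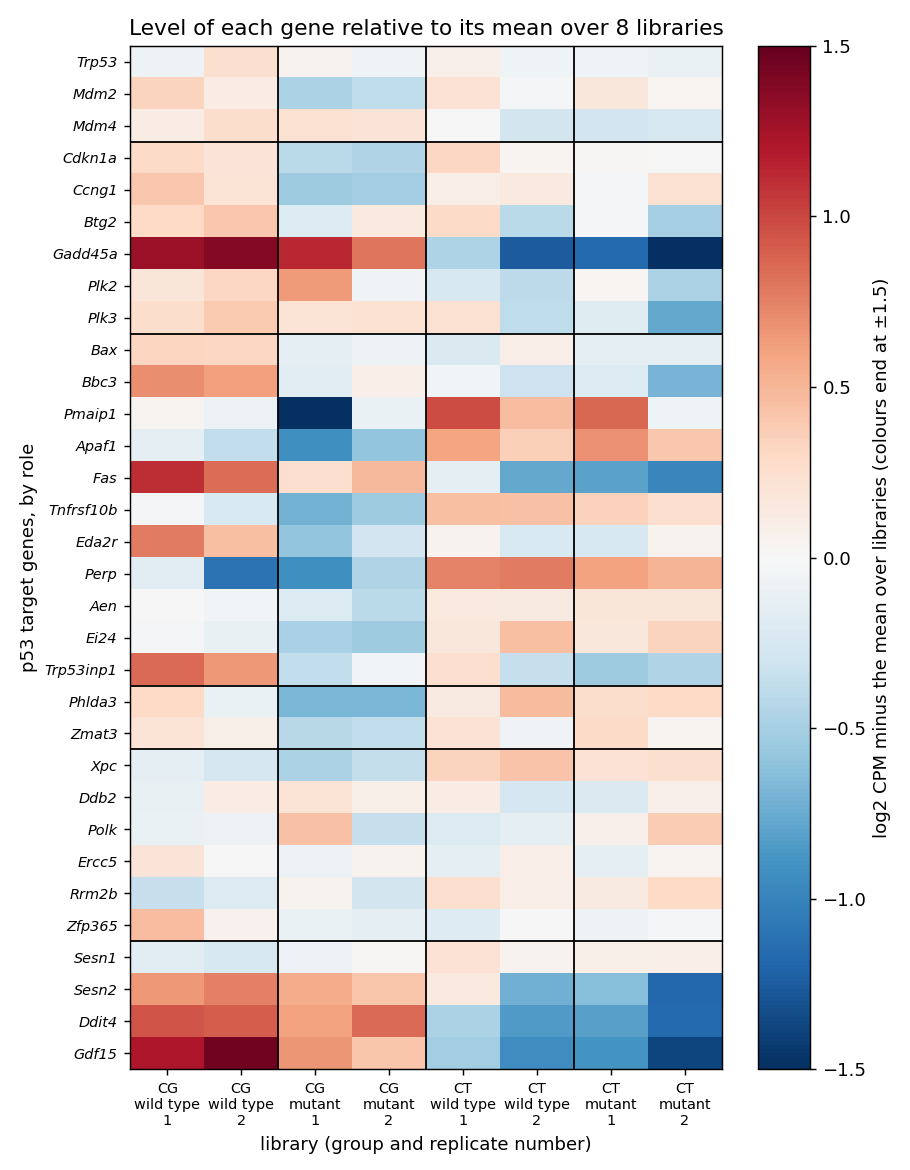
Level of each of the 32 genes in each library as log2 CPM minus the gene's mean over 8 libraries (colour, red higher, blue lower, ends at the scale's limits), with genes in rows by role and libraries in columns by group. Mdm2, Ccng1, Cdkn1a, Phlda3 and Zmat3 are bluest in the 2 CG mutants, whereas Gadd45a, Gdf15, Ddit4, Fas and Sesn2 differ between the lines.

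Whether the mutant effect differed between the lines was tested as the CG effect minus the CT effect in the same fit. No member passed the adjusted threshold in edgeR, where 0.0209% of genes did. At an unadjusted p under 0.05, 10 members had a difference of effects below 0 and none above, against 2.14% of genes below. Ccng1 had the smallest p, with a difference of -0.82 ± 0.16 (edgeR adjusted p = 0.544). Eda2r followed with -1.05 ± 0.26, Mdm2 with -0.64 ± 0.17, Phlda3 with -0.77 ± 0.21 and Zmat3 with -0.62 ± 0.17. The other 5 were Cdkn1a (-0.50 ± 0.16), Apaf1 (-0.57 ± 0.23), Ei24 (-0.38 ± 0.16), Tnfrsf10b (-0.35 ± 0.15) and Aen (-0.32 ± 0.13). For Trp53 the difference of effects was -0.01 ± 0.17. DESeq2 called 1 member, Ccng1, with an adjusted p of 0.00502, where it called 38 of all genes. With 2 libraries a group, edgeR separated the effects of the lines for no member.

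The mutants of both lines were compared with each other, which uses the CG mutant libraries again. In edgeR 17 members passed the adjusted threshold, 11 higher and 6 lower in the CT mutants, against 17.9% and 18.2% of all genes. Of the arrest genes, 2 of 6 passed as higher and 1 as lower, with a median log2 difference of -0.38. Ccng1 was higher in the CT mutants and differed by 0.64 ± 0.11 on the log2 scale (edgeR adjusted p = 0.00384), Mdm2 by 0.52 ± 0.12 (0.0113) and Cdkn1a by 0.44 ± 0.11 (0.0197). The Cdkn1a call was lost without CG mutant 2 or either CT mutant, with adjusted p-values of 0.0628 to 0.0828, and the Mdm2 and Zmat3 calls without CT mutant 1, at 0.0733 and 0.0704.

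Apoptosis genes made up 5 of the 11 members that were higher. Tnfrsf10b had 109 and 102 CPM in the CT mutants and 52.6 and 59.2 CPM in the CG mutants, a log2 difference of 0.92 ± 0.10 (edgeR adjusted p = 0.000738). Apaf1 had 32.4 and 26.6 CPM against 10.6 and 13.3 CPM, a difference of 1.30 ± 0.17 (0.00117). Perp (1.23 ± 0.28), Ei24 (0.77 ± 0.12) and Aen (0.48 ± 0.09) were also higher. Perp lost its call without CG mutant 1 (adjusted p = 0.0503) or CT mutant 1 (0.0549). The rest were Phlda3 (0.97 ± 0.15), Xpc (0.64 ± 0.09) and Zmat3 (0.56 ± 0.12). Fas went the other way, with 3.60 and 3.18 CPM in the CT mutants and 7.48 and 8.82 CPM in the CG mutants, a difference of -1.27 ± 0.24 (edgeR adjusted p = 0.0055).

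The stress genes were lower in the CT mutants in 3 of 4. Ddit4 had 43.7 and 34.3 CPM against 117 and 138 CPM in the CG mutants (-1.71 ± 0.16, edgeR adjusted p = 0.000421). Gdf15 had 49.8 and 35.9 CPM against 147 and 124 CPM (-1.66 ± 0.20), and Sesn2 86.0 and 59.5 CPM against 198 and 179 CPM (-1.37 ± 0.27). Gadd45a showed the largest difference of the list, with 56.0 and 37.3 CPM against 276 and 219.8 CPM (-2.41 ± 0.28, edgeR adjusted p = 0.000789). Mdm4 was lower by less (-0.47 ± 0.11), and its call was lost on the FPKM scale (adjusted p = 0.0767 to 0.0971) and without either CT mutant (0.0735 and 0.0551). The groups did not overlap for any of these 5 genes, but the share of all genes without overlap between the lines was not counted. Trp53 did not pass, with 149 and 145 CPM against 161 and 149 CPM (-0.08 ± 0.12). The FPKM scale moved the median of all genes by 0.19 in this comparison and by 0.12 in that of the wild types, toward the CT line.

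Between the wild types, the line differences are given as a description, since the list was proposed with this comparison known. The core targets were close: the log2 difference of CT minus CG wild types was -0.06 for Cdkn1a, -0.12 for Mdm2, -0.19 for Ccng1 and -0.08 for Trp53. The largest differences were those of Gadd45a (-2.14), Gdf15 (-2.05), Ddit4 (-1.58), Fas (-1.40) and Perp (1.31). Gadd45a had 309 and 327 CPM in the CG wild types and 91.1 and 53.1 CPM in the CT wild types. Gdf15 had 215 and 254 CPM against 64.7 and 48.8 CPM, and Ddit4 149 and 145 CPM against 55.4 and 42.6 CPM. Fas had 13.5 and 11.3 CPM against 5.71 and 3.67 CPM, while Perp had 18.7 and 9.74 CPM in the CG wild types and 35.0 and 35.8 CPM in the CT wild types. The groups did not overlap for any of these 5, but here too the share over all genes was not counted. In the mutants, which share no library with the wild types, the same genes differed by -2.41, -1.66, -1.71, -1.27 and 1.23.

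Of the 32 members, 10 were past the adjusted threshold as lower and 6 as higher in the CT wild types, against 16.8% and 17% of all genes. The split depended on the scale: with FPKM it was 7 lower and 7 higher, and 5 and 7 with no filter on low values, and the members' median was -0.12 on the count scale and 0.01 on the FPKM scale. Fewer members, and fewer of all genes, passed without CG wild type 1, CG wild type 2 or CT wild type 2. The members' median was then -0.13, -0.215 and -0.08. Apoptosis genes lay on both sides. Bbc3 (-0.82), Trp53inp1 (-0.77), Eda2r (-0.70) and Bax (-0.37) were lower in the CT wild types, and Apaf1 (0.73), Tnfrsf10b (0.57) and Ei24 (0.39) higher. Xpc (0.59) and Rrm2b (0.45) of the repair group were higher, and Sesn2 (-0.93) and Mdm4 (-0.33) lower.

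**Figure D4:**
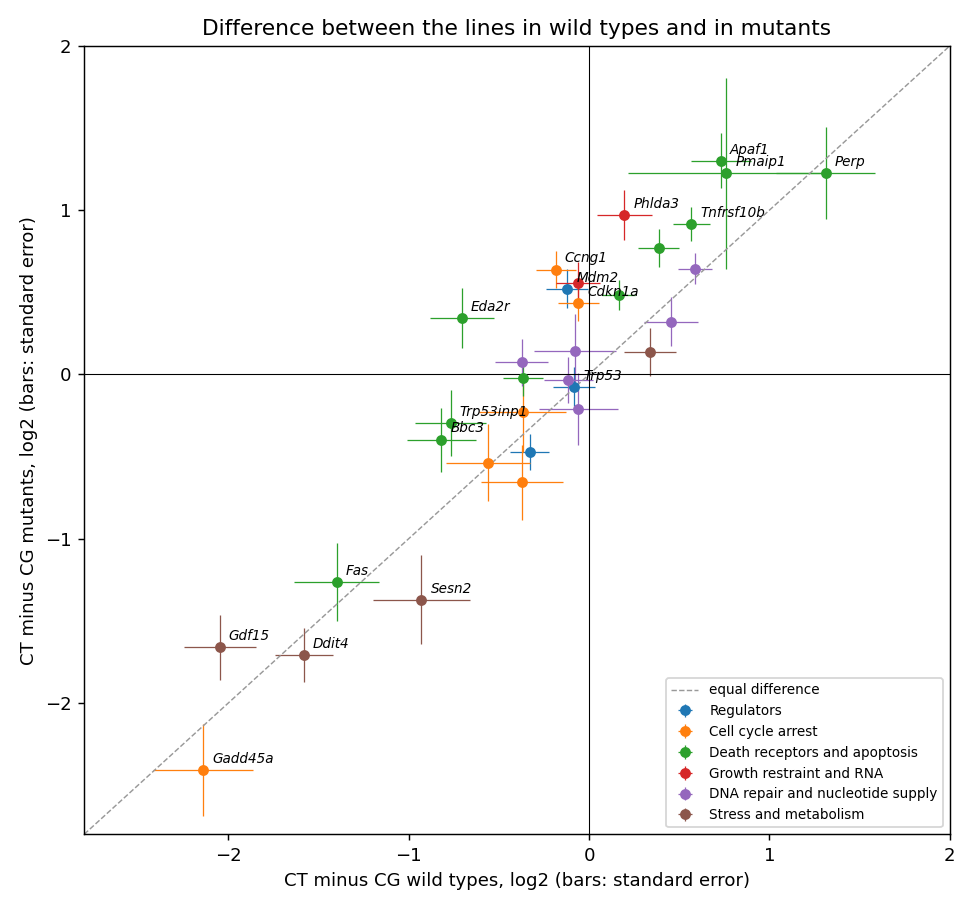
Log2 difference of the CT minus the CG line for the 32 genes, in wild types (horizontal) and in mutants (vertical); bars are standard errors, colours are role groups and the dashed line marks equal differences. Ccng1, Mdm2 and Cdkn1a lie near 0 in wild types and at 0.64, 0.52 and 0.44 in mutants, and Gadd45a, Gdf15 and Ddit4 lie lowest in wild types.

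Marker sums of several other cell types also differed between the lines. The 7 erythroid markers summed to 2.95 to 16.8 CPM in the CG libraries and 998 to 2688 CPM in the CT libraries. Hbb-b2 was at 0 in all 4 CG libraries and Hbb-b1 at 0 in the CG wild types. Hbb-bs and Hbb-bt were found in every CG library and overlapped between the wild types. Hbb-bs had 3.3 and 6.74 CPM in the CG wild types and 4.17 and 0.305 CPM in the CT wild types. Hbb-bt had 0.78 and 1.36 CPM against 1.12 and 0.064 CPM. The other 5 markers were past the threshold as higher in the CT wild types, against 17% of all genes. All 7 were in the CT mutants, against 17.9%. The 6 neutrophil markers summed to 9.22 to 21.5 CPM against 61.8 to 201 CPM. The 4 endothelial markers summed to 10.3 to 31.5 CPM against 48.8 to 93.5 CPM. Dissociation stress genes summed to 1270 to 1479 CPM in the CG line and 2142 to 3558 CPM in the CT line, of which Hspa1a and Hspa1b made up 28.9 to 99.1 CPM and 945 to 1845 CPM. The other 8 genes of that list overlapped, with 1212 to 1379 CPM against 1197 to 1713 CPM. Skeletal muscle markers overlapped too, with 9.84 to 37.4 CPM and 7.55 to 11.0 CPM. Their part in the line differences was not tested. Whether the lines were bred, cultured and sequenced together is not stated, so line and handling cannot be told apart.

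Further reported p53 targets outside the list were examined in the same fit, 19 of 20 of which were tested. In the CG mutants none passed in edgeR, where 0.00696% of all genes did. At an unadjusted p under 0.05, 5 were lower and 1 higher, against 4.87% and 6.5% of all genes. The 1 higher was Dram1, a regulator of autophagy, with a log2 difference of 0.46 ± 0.14. It had 14.4 and 14.9 CPM in the wild types and 18.0 and 22.25 CPM in the mutants. Gtse1, a regulator of p53 late in the cell cycle, had 11.3 and 8.98 CPM in the wild types and 3.24 and 4.54 CPM in the mutants, a log2 difference of -1.38 ± 0.21 (edgeR adjusted p = 0.128, not passed). Psrc1, a spindle-associated protein, had 6.66 and 5.51 CPM against 3.03 and 3.09 CPM, a difference of -0.99 ± 0.18 (adjusted p = 0.169 by edgeR, not passed). DESeq2 called both lower, with adjusted p-values of 2.58e-05 for Gtse1 and 0.022 for Psrc1. Both genes are cell cycle genes as well. In the CT mutants none passed, and Dram1 had a log2 difference of 0.24 ± 0.14. Between the mutants 6 were higher and 2 lower in the CT line, against 17.9% and 18.2% of all genes. Gtse1 (1.97), Ptprv (2.28), Ckap2 (1.92) and Psrc1 (1.22) were higher there. Between the wild types 5 lay past the threshold as higher and 2 as lower, against 17% and 16.8% of all genes. The largest difference was that of Ptprv (2.24).

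Upstream kinases, cofactors and modifiers of p53 gave no call within a line. Of 15 tested in the CG mutants none passed, and 2 were lower at an unadjusted p under 0.05, against 4.87% of all genes. They were Ppm1d, a phosphatase that is itself a p53 target (-0.34 ± 0.12, edgeR adjusted p = 0.345), and Atm, the kinase of double-strand break signalling (-0.25 ± 0.10). In the CT mutants none passed, with Prkdc (0.34 ± 0.19) and Kat5 (-0.16 ± 0.09) of smallest p. Between the mutants Usp7, a deubiquitinase of Mdm2 and p53, was higher in the CT line (0.50 ± 0.09) and Rchy1, a ubiquitin ligase for p53, lower (-0.55 ± 0.12). That is 1 of 15 in each direction, against 17.9% and 18.2% of all genes. Between the wild types only Rchy1 was past the threshold (-0.43), where 16.8% of all genes were as lower and 17% as higher. Rchy1 had 28.2 and 30.8 CPM in the CG line and 20.5 and 23.2 CPM in the CT line.

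Cell cycle genes that p21, the RB family and the DREAM complex repress gave no call within a line. Of 12 tested, 10 had a log2 difference below 0 in the CG mutants, where 49.4% of all genes did, with a median of -0.29. None had an unadjusted p under 0.05. Ccnb1, cyclin B1, had -0.83 ± 0.38 and Ccne2, cyclin E2, -0.50 ± 0.26, neither past the threshold. Their sum was 43.5 and 39.7 CPM in the wild types and 31.5 and 42.0 CPM in the mutants, the lower value being that of CG mutant 1. In the CT mutants 6 of 12 were below 0, where 50.6% of all genes were, and none passed. Mki67 (-0.48 ± 0.22) and Mcm5 (0.17 ± 0.18) had the smallest p. Between the mutants 9 of 12 were higher in the CT line and none lower, against 17.9% and 18.2% of all genes. Mcm5, a replication licensing subunit, had 28.7 and 28.6 CPM there and 5.61 and 8.28 CPM in the CG mutants (2.04 ± 0.19, edgeR adjusted p = 0.000412), and Ccne2 (2.47), Cdk1 (2.05) and E2f1 (1.16) were higher too. Between the wild types 6 lay past the threshold, all higher in the CT line, against 17% of all genes. The sum was 91.0 and 90.9 CPM in the CT wild types.

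The death machinery downstream of the targets showed no call within a line in edgeR. Of 10 genes in the CG mutants, 4 were below 0, where 49.4% of all genes were. Mcl1, an anti-apoptotic relative of Bcl2, was the only one with an unadjusted p under 0.05 (-0.24 ± 0.10), where 4.87% of all genes were lower. Casp9 followed (-0.19 ± 0.14). In the CT mutants the smallest p-values were those of Bak1 (0.19 ± 0.10) and Cycs, cytochrome c (0.10 ± 0.10). Between the mutants Bak1 (0.52), Casp8 (0.76), Diablo (0.41) and Bid (0.44) were higher in the CT line and none was lower, against 17.9% and 18.2% of all genes. The same 4 were the ones past the threshold between the wild types, all higher in the CT line, where 17% of all genes were. Casp8 was at 0.82 and Bak1 at 0.45.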

How the data were processed

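RNA of plated rib chondrocytes was profiled in 8 libraries, 2 in each of 4 groups taken from the labels. Reads were aligned with HISAT2 2.0.4 to build mm9, per the submitters' processing notes. Read counter and annotation were not given in the sources used here. Per gene, the authors deposited FPKM values and an estimated count, which is not whole for 2282 to 2518 genes a library and was rounded here. A further deposited table by the authors holds log2 ratios and q-values for part of the genes and was only quoted.

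One edgeR 4.0.16 quasi-likelihood fit over all 8 libraries with 4 group means was used, with TMM factors (0.88 to 1.08), the filterByExpr filter (14359 genes) and Benjamini-Hochberg adjustment over all of these at 0.05. Standard errors are the log2 difference over the square root of F. R 4.3.3, limma 3.58.1 and DESeq2 1.42.0 served the alternatives, with log2(FPKM + 1) and log2(FPKM + 0.1) for limma. The scripts were tested on simulated data. All members were accounted for; Cdkn1a, Mdm2, Ccng1 and Trp53, members past the threshold and the 5 of smallest p (largest difference for the wild types) were given with values, and of other lists those past the threshold (at most 4) or the 2 of smallest p. The values of 1 gene of these lists are not reported here. Members and lists were chosen with earlier results of these data known. Counting error of low genes is covered by the standard errors only.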

Additional observations from a re-analysis of the deposited data

How the results depend on the processing

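A direction was judged only where a log2 difference exceeded its standard error, and none then turned under any alternative run. The number of members past the adjusted threshold between CG mutants and wild types was 0 by edgeR, 1 with no filter on low counts (Ccng1, adjusted p = 0.042) and 9 by DESeq2, and 0 to 4 when a library was left out. DESeq2 called 205 of all genes in this comparison and edgeR 1. The 16 members lower at an unadjusted p under 0.05 became 14 to 19 under other settings, and also changed with a library left out. The share over all genes at that threshold was not counted in those runs. For the difference of the effects the count was 0, and 1 by DESeq2, which called 38 of all genes. In the CT line no setting called a member. The 3 CT members lower at an unadjusted p under 0.05 became 5 with a term for Ddx3y and 1 with only the groups compared. They became 0 on the FPKM scale with a pseudocount of 0.1 or with no filter, and moved both ways with a library left out. The 6 with both mutants below both wild types became 10 to 20. For neither count was the share over all genes taken in these runs, so nothing about the members is read from them. The cause of the moves was not tested, except that leaving out a library leaves fewer values to overlap. The 17 calls between the mutants were 13 to 18 with a library left out and 17 to 19 otherwise; the 16 between the wild types were 8 to 16 and 12 to 15.

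Replicate numbers are shared across groups, but deviations of same-numbered libraries correlated at -0.0892 in the CG line and 0.248 in the CT line over all genes, and at -0.381 and 0.606 over the members. The labels name nothing that a number shares and each line has 2 numbers, so they were not read as pairs. With the replicate number as a block, 0 members passed in either line and for the difference of effects, 16 and 3 were lower at an unadjusted p under 0.05, and 18 and 14 passed between mutants and between wild types. Leaving a library out of a group leaves 1, whose spread is taken from the other groups. Counts of lower and non-overlapping members were alternatives chosen after seeing the data. Pmaip1, at up to 2.08 CPM, and Ddb2 and Sesn1, at under 10 CPM, are the members whose depth limits what can be told.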
